A study of Mus musculus with 24 samples.

Results

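The cells described here are the liver NK1.1+CD3e+ cells of WT and Jα18-deficient mice that carried little or no mRNA of Cd8a and of 4 Ly49 genes (Klra1, Klra5, Klra7 and Klra9). A cell's value for a gene was its UMIs of that gene per 10000 of its UMIs, a UMI being a tag that marks 1 captured transcript. A cell belonged to this compartment when it had at least 10000 UMIs, a Cd8a value under 0.5 and a summed value of the 4 Ly49 genes under 0.5. The rule was met by 409 WT and 213 Jα18-deficient cells, 622 of the 1735 cells of all genotypes in the matrix. Because the 5 genes were used to choose the cells, their levels are described and no result is drawn from them.

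The study sorted NK1.1+CD3e+ liver cells of C57BL/6-background mice aged 8 to 10 weeks, picked single cells by hand and sequenced them with UMIs. The WT group carried no deletion and no group was treated. Jα18-deficient mice lack the Jα18 segment of the T cell receptor alpha locus, and the study names as a limit that the line first made lost further Jα segments, which narrows its receptor repertoire. CD1d-deficient mice lack CD1d1, with CD1d2 left in place, and their 38 cells of the same compartment are given as side values. Type I NKT cells without NK1.1 were outside the sort in every genotype. The labels name 8 libraries a genotype, but the cell names carry no library or animal, so each genotype was 1 pool without replicates. No test between genotypes was possible, and the 95% intervals below cover counting error only, not the spread between animals.

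NKT cells are T cells that carry receptors of NK cells and respond quickly with cytokines. Type I NKT cells use a semi-invariant receptor built with Jα18 and recognise lipids on CD1d, type II NKT cells recognise CD1d with other receptors, and further NK1.1+ T cells do not depend on CD1d. In the liver of WT mice type I NKT cells are the most abundant of these. Ly49 receptors and CD8α mark NK1.1+ T cells that are largely independent of CD1d, so cells without these markers include type I NKT cells in WT mice, while Jα18-deficient mice lack type I NKT cells and their compartment holds other NK1.1+ T cells.

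The compartment made up 78.2% of the WT cells with at least 10000 UMIs (409 of 523, exact Clopper-Pearson interval 74.4% to 81.7%) and 33.7% of the Jα18-deficient cells (213 of 632, 30% to 37.5%). In the CD1d-deficient pool it made up 16.7% (38 of 227, 12.1% to 22.2%). The median depth of its cells was 54790 UMIs in WT and 67476 in Jα18-deficient mice, and 11 WT and 36 Jα18-deficient cells exceeded 200000 UMIs. The summed depth was 28018124 and 22929326 UMIs. The rule itself sets this share, which is given as a description. In summed levels, fewer cells with a transcript and less of it per cell cannot be told apart, so shares of cells are given beside the main genes.

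The values at the edge of the compartment show how close its cells came to the rule. The highest summed Ly49 value inside was 0.498 in WT and 0.494 in Jα18-deficient cells, and the lowest outside was 0.513 and 0.5. In WT 261 of the 409 cells (63.8%) had no UMI at all of the 5 genes, against 49 of 213 (23%) of the Jα18-deficient cells. A Cd8a or summed Ly49 value between 0.25 and 0.5 was present in 46 WT and 115 Jα18-deficient cells of the compartment, and 18 WT and 96 Jα18-deficient cells outside it had both values under 1. Klra7 stood at 2.11 CPM (UMIs per 1000000 UMIs of the pool) in WT and 12.3 CPM in Jα18-deficient compartment cells, which were 0.287% and 1.59% of its level in the other cells of the same pools. The ratios of the named genes were therefore computed again on the 261 and 49 cells without any such UMI. Cells with fewer UMIs meet this stricter rule more easily, and depth was not matched. The log2 ratio of summed depth, WT over Jα18-deficient, was 3.1 in that subset. A shift of a ratio there can therefore not be assigned to the removed UMIs alone.

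The label was checked against genes that define the sort. Cd3e, a chain of the T cell receptor complex, stood at 244 CPM in WT and 321 CPM in Jα18-deficient cells, and Klrb1c, which encodes NK1.1, at 688 and 722 CPM. At least 1 UMI of Cd3e was found in 96.8% and 98.1% of cells and of Klrb1c in 96.1% and 98.1%. Cd1d1, the gene deleted in CD1d-deficient mice, was at 26.3 CPM in WT, 12.4 CPM in Jα18-deficient and 0 CPM in CD1d-deficient compartment cells, where 0 counts allow up to 0.977 CPM. The T cell receptor gene segments themselves were not analysed here. A Cd4 value of 0.5 or more was present in 30.8% of WT cells (126 of 409, 26.4% to 35.5%), in 18.8% of Jα18-deficient cells (40 of 213, 13.8% to 24.7%) and in 0 of 38 CD1d-deficient cells, for which the exact upper limit is 9.25%.

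Levels were compared as the ratio of summed CPM, Jα18-deficient over WT. A gene entered when the pools together held at least 100 UMIs and at least 20% of the cells of either pool had a UMI of it, and it was counted as higher or lower from 2-fold (a log2 ratio of 1 or -1) on. Of 4841 genes, 332 were higher in the Jα18-deficient compartment, which is 6.86%, and 125 were lower, which is 2.58%. The median log2 ratio over all these genes was 0.09, and the middle 90% of genes lay between -0.79 and 1.12. A ratio past 4-fold was reached by 27 genes upward and 4 downward. On the cells without any UMI of the 5 genes the split turned to 405 higher and 456 lower of 4115 genes. Within Cd4-positive cells (126 WT and 40 Jα18-deficient) 15.8% of 5187 genes were higher and 17.9% lower. A single gene past 2-fold among those cells therefore carries little weight.

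The NK cell receptors and their adaptors were higher in part, and none of those measured was lower by 2-fold. Of 24 listed genes in the matrix 15 passed the filter, 5 of them were higher and 0 lower, beside 6.86% and 2.58% of all genes, and their median log2 ratio was 0.58. The 5 were Tyrobp, Fcer1g, Cd7, Cd244 and Klrc1. The promoters of 3 of them are shown as examples of the higher genes of this list, and shared regulation was not tested. Each line gives the 250 bases before the annotated gene start in the mm9 build, 5′ to 3′ on the gene's strand, with matches to short core motifs, or to their reverse complement, in capitals. The motifs searched on both strands were TGTGGT (RUNX), TCACAC (T-box) and CCGGAA (ETS), and no window held more than 1 match.
Fcer1g (chr1:173164497-173164746, minus strand): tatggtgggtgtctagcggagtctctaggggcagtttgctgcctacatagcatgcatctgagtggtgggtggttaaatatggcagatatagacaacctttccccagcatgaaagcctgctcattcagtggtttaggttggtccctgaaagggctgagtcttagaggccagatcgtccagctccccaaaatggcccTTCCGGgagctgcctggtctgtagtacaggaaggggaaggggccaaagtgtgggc
Cd7 (chr11:120900733-120900982, minus strand): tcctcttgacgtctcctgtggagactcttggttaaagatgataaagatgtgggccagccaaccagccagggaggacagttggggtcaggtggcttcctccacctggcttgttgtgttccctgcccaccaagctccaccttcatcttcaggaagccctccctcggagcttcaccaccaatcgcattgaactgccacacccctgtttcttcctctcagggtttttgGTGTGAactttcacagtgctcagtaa
Klrc1 (chr6:129628992-129629241, minus strand): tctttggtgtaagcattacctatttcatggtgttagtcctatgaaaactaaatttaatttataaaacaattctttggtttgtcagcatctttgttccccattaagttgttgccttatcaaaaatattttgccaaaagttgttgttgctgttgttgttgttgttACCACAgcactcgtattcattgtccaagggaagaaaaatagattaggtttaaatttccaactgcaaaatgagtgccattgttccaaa
Cd7 held 1 T-box match 26 bases before the start, counted to the first base of the match. Fcer1g held 1 ETS match at 55 bases and Klrc1 held 1 RUNX match at 87 bases. Among the 22370 protein-coding promoters of this length, 11.1% held the T-box motif, 13.9% the ETS motif and 12.8% the RUNX motif, so a match in a single promoter is a description of its letters and not a binding site. No window overlapped an annotated exon.

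Tyrobp encodes DAP12, the signalling adaptor of activating NK receptors. It stood at 64.2 CPM in WT (interval 61.2 to 67.2) and 220 CPM in Jα18-deficient compartment cells (214 to 226), a log2 ratio of 1.78 (1.70 to 1.85), and at 995 CPM in the CD1d-deficient compartment. In single cells its median value was 0.290 per 10000 in WT, with quartiles of 0 and 0.744, and 0.945 in Jα18-deficient cells, with quartiles of 0.641 and 1.58. The lower quartile of the Jα18-deficient cells was thus above the WT median, while the ranges of single cells overlapped. The highest single-cell value was 20.4 in WT and 47.5 in Jα18-deficient cells. The cells outside the compartment, where Tyrobp was far higher, held 5623365 UMIs in the WT and 36991472 in the Jα18-deficient pool. The part of their RNA in the compartment values was not tested. The share of cells with a Tyrobp UMI, after each cell was thinned to 10000 UMIs, was 31.3% in WT (26.8% to 36.0%) and 61.5% in Jα18-deficient cells (54.6% to 68.1%). Without thinning the shares were 70.7% and 95.3%. The B cell gene Ms4a1, which T cells lack, gave a UMI without thinning in 0.733% of WT cells and in 0% of Jα18-deficient cells. All B cell markers together reached only 3.32 CPM in WT and 1.96 CPM in Jα18-deficient compartment cells. Ms4a1 is therefore no blank for Tyrobp, which the other cells of these pools held in abundance.

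Fcer1g, the Fc receptor gamma chain that also carries NK receptor signals, was at 111 CPM in WT and 309 CPM in Jα18-deficient cells, a log2 ratio of 1.47 (1.41 to 1.53). Its thinned share of cells was 34.2% in WT and 67.6% in the Jα18-deficient compartment, and 77.5% and 97.2% before thinning. Cells that held UMIs of both adaptors after thinning were 14.2% of WT (58 of 409, 10.9% to 17.9%), 44.1% of Jα18-deficient (94 of 213, 37.4% to 51.1%) and 71.1% of CD1d-deficient compartment cells (27 of 38, 54.1% to 84.6%). The share was lowest in WT and highest in the CD1d-deficient pool. Each genotype was 1 pool, so the counting intervals do not show whether this order holds between animals.

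Cd7, an immunoglobulin family protein of NK and T cells, was at 182 and 480 CPM, a log2 ratio of 1.40 (1.35 to 1.45). Klrc1, which encodes the inhibitory receptor NKG2A, was at 340 and 739 CPM, a log2 ratio of 1.12 (1.08 to 1.16), and its thinned share of cells was 43.5% and 75.1%. Cd244, the receptor 2B4, had a log2 ratio of 1.74 on low levels of 2.25 and 7.50 CPM, but 1 cell gave 66.7% of its WT UMIs and 1 cell gave 52.3% of its Jα18-deficient UMIs. Below 2-fold were Klre1 at a log2 ratio of 0.93, Klrk1 (NKG2D) at 0.58 and Klrd1 (CD94) at 0.24. Hcst, the DAP10 adaptor of NKG2D, was at 0.23 and Cd160 at -0.11. Ncr1, which encodes NKp46, was at 6.60 and 9.38 CPM, with a UMI in 4.16% and 35.7% of cells, or 1.22% and 6.10% after thinning, and 69.2% of its WT UMIs came from 1 cell.

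**Figure D1:**
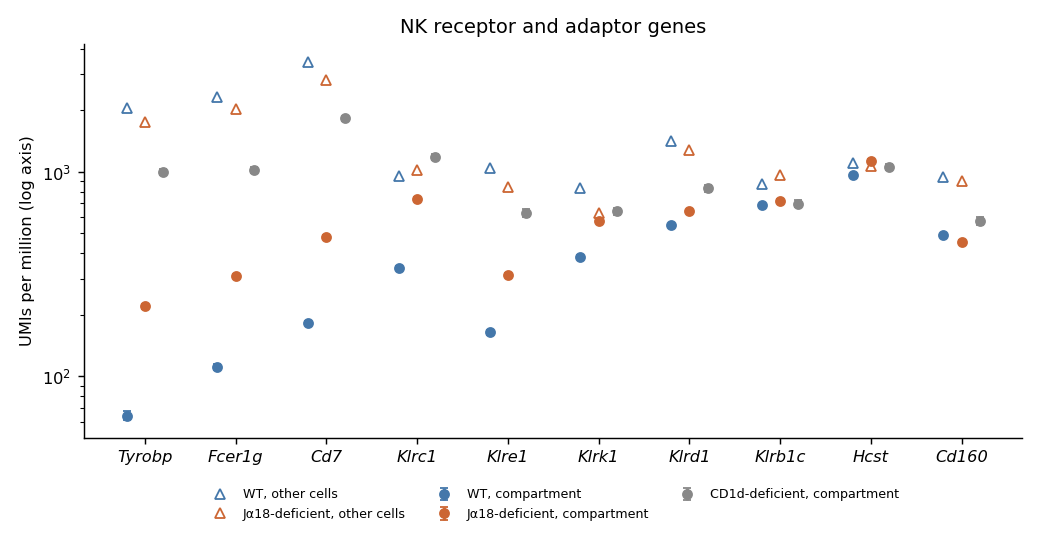
Summed levels of 10 NK receptor and adaptor genes in CPM on a log axis, with filled circles for compartment cells of the 3 genotypes (bars are exact Poisson 95% intervals, mostly smaller than the symbol) and open triangles for the other cells of the WT and Jα18-deficient pools. Tyrobp, Fcer1g and Cd7 lie in the order WT, Jα18-deficient, CD1d-deficient inside the compartment and below the other cells, while Klrb1c and Hcst lie close together.

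Outside the compartment these genes differed by less than 2-fold. In the cells with a Cd8a or summed Ly49 value of 0.5 or more (114 WT and 419 Jα18-deficient cells), Tyrobp stood at 2061 and 1757 CPM, a log2 ratio of -0.23, Fcer1g had a ratio of -0.19 and Cd7 of -0.29. The list as a whole had 0 of 15 members past 2-fold there and a median of -0.14. The level inside as a share of the level outside differed between these genes. In the Jα18-deficient pool the inside level was 12.5% of the outside level for Tyrobp, 15.2% for Fcer1g, 17.0% for Cd7 and 72.7% for Klrc1, but 4.26% for Ncr1. In the WT pool it was 3.11% for Tyrobp, 4.8% for Fcer1g, 5.29% for Cd7 and 35.7% for Klrc1.

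Tyrobp, Fcer1g and Cd7 were past 2-fold under all 14 other settings tried. On the 261 WT and 49 Jα18-deficient cells with no UMI of the 5 rule genes, the log2 ratio was 2.05 for Tyrobp, 1.94 for Fcer1g, 1.81 for Cd7 and 1.5 for Klrc1. Within Cd4-positive cells it was 1.20 for Tyrobp and 1.59 for Fcer1g, and within Cd4-negative cells 1.80 and 1.29. Klrc1 fell short of 2-fold within Cd4-positive cells (0.80), and Cd244 was at 0.28 when cells above 200000 UMIs were left out.

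Ly49 genes that the rule did not use were mostly absent. Of 9 such genes only Klra3 passed the filter, at 40.7 CPM in WT and 93.8 CPM in Jα18-deficient cells, a log2 ratio of 1.20 inside and 1.13 outside the compartment. On the cells with no UMI of the rule genes its ratio was 0.30. Reads of the near-identical Ly49 genes can be divided between family members by the counting, so single members are uncertain. Klra10 was at 0 CPM in WT and 20.4 CPM in Jα18-deficient cells, but 1 cell gave 97.9% of its UMIs.

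Genes of the S100, galectin, annexin and vimentin group, which are known from effector and memory lymphocytes, included 6 higher members. Of 12 members that passed, 6 were higher and 0 lower, beside 6.86% and 2.58% of all genes, with a median log2 ratio of 1.01 beside 0.09. S100a4, a calcium-binding protein tied to motility, stood at 101 and 421 CPM, a log2 ratio of 2.06 (2 to 2.12). S100a6 stood at 253 and 710 CPM, a ratio of 1.49 (1.45 to 1.53), and its thinned share of cells was 48.9% (44.0% to 53.9%) in WT and 82.2% (76.3% to 87.1%) in Jα18-deficient cells. Anxa2, a membrane-binding annexin, was at 68.0 and 173 CPM (1.35) and Ahnak, a giant scaffold protein, at 127 and 291 CPM (1.20).

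Vim, the intermediate filament vimentin, had the largest ratio of this list, 2.20, on 10.2 and 46.7 CPM, yet on cells with no UMI of the rule genes it was 0.29 and within Cd4-positive cells 0.18. Lgals3, which encodes galectin-3, had a ratio of 1.38 inside but 4.37 outside the compartment. It is also among the genes earlier seen to be higher over the whole Jα18-deficient pool, so its place among the 6 is not independent evidence. The members S100a10 and S100a11 lay at -0.42 and -0.41, and Lgals1 at 0.47. Within Cd4-positive cells 3 members in place of 6 were past 2-fold. S100a4 and S100a6 were past 2-fold under all 14 other settings tried.

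Genes linked to circulation through blood and lymph were mixed. Of 13 members that passed, 4 were higher and 2 lower, beside 6.86% and 2.58% of all genes, with a median of 0.56 beside 0.09. Ly6c2, a surface marker of memory and effector cells, stood at 616 and 1727 CPM, a log2 ratio of 1.49 (1.46 to 1.51), and its thinned share of cells was 45.2% and 78.9%. Klf2, the transcription factor that drives S1pr1, was at 10.7 and 33.5 CPM (1.65), and Itga4, an integrin chain, at 18.1 and 69.0 CPM (1.93). Lower were Ccr9, a gut homing receptor, at 116 and 51.1 CPM (-1.18), and Il7r, the interleukin-7 receptor, at 397 and 191 CPM (-1.06). Without cells above 200000 UMIs 2 of the list's members were higher in place of 4. On cells with no UMI of the rule genes, where the filter was applied again, 1 was higher. Ly6c2 was at 0.94 and Ccr9 at -0.34 there, while Klf2 was at 3.83 and Itga4 at 1.51. The lower count is therefore not a fall of every ratio. Il7r was at -0.98 when the rule summed every Klra gene.

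Liver residency genes mostly had ratios below 0. Of 15 members 0 were higher and 1 was lower, beside 6.86% and 2.58% of all genes, a count too small to compare. Their median was -0.39 beside 0.09, and 12 of 15 lay below 0. The lower gene was Rgs1, a regulator of chemokine receptor signalling, at 286 CPM in WT and 104 CPM in Jα18-deficient cells, a log2 ratio of -1.46 (-1.52 to -1.39), and it was also lower outside the compartment (-1.72). Cxcr6, the chemokine receptor of liver NKT cells, stood at 2204 and 1584 CPM (-0.48), Cxcr3 at -0.44 and Cd69 at 0.03.

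**Figure D2:**
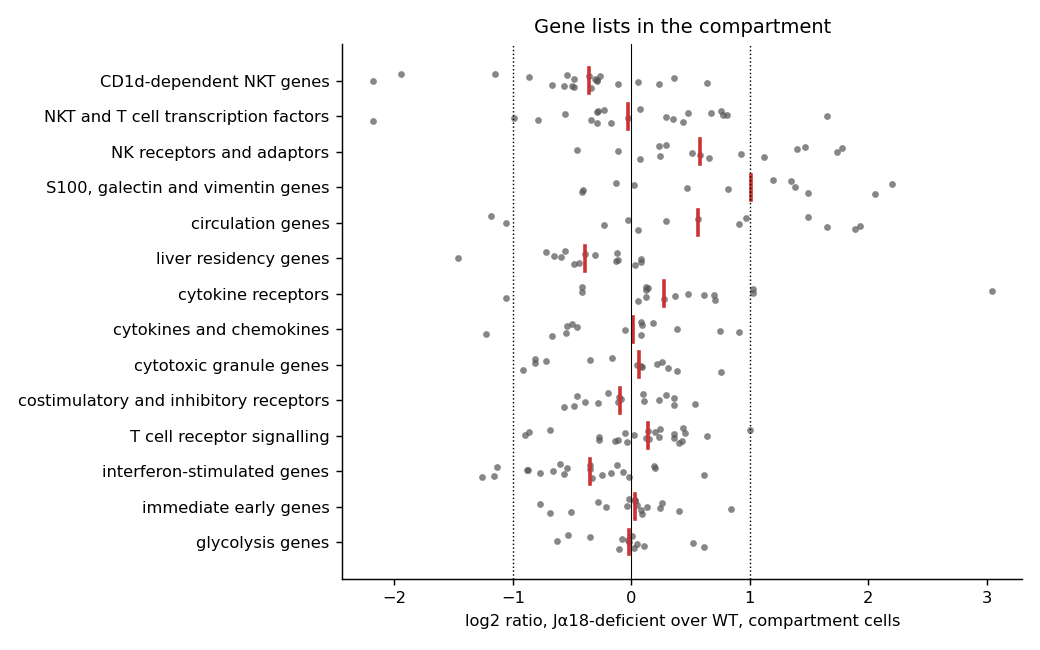
Log2 ratio, Jα18-deficient over WT, in compartment cells for each member of 14 gene lists that passed the filter (points), with the median of the list as a red bar and 2-fold as dotted lines. The medians of the NK receptor list (0.58) and of the S100, galectin and vimentin list (1.01) lie above 0, those of the CD1d-dependent NKT and liver residency lists lie below it, and glycolysis and immediate early genes lie at about 0.

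Genes known from CD1d-dependent NKT cells mostly differed by less than 2-fold. Like the other lists, it was chosen with earlier results of these samples known, so its direction is not independent evidence. Of 21 members that passed 0 were higher and 3 lower, beside 6.86% and 2.58% of all genes, with a median of -0.36 beside 0.09 and 17 of 21 below 0. Maf, the transcription factor c-Maf, stood at 73.6 CPM in WT (interval 70.5 to 76.8) and 16.3 CPM in Jα18-deficient cells (14.7 to 18.0), a log2 ratio of -2.18 (-2.34 to -2.02), and at 59.3 CPM in the CD1d-deficient compartment. The serine protease inhibitor genes Serpina3f and Serpina3g stood at 177 and 46.3 CPM (-1.94) and at 317 and 142 CPM (-1.15). These are close paralogs, so the division of reads between them is uncertain. Maf and Serpina3f were past 2-fold under all 14 other settings, and both were also lower outside the compartment, with log2 ratios of -1.44 and -2.39.

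The other members differed by less than 2-fold. Zbtb16, which encodes PLZF, the factor that directs NKT cell development, was at 53.5 and 43.7 CPM, a ratio of -0.29, with 147 CPM in the CD1d-deficient compartment. Il4 was at 170 and 107 CPM (-0.67), with 0.34 in Cd4-positive and -1.18 in Cd4-negative cells. The costimulatory receptor gene Cd28 was at 398 and 268 CPM (-0.57), Icos at 273 and 195 CPM (-0.48) and the CD40 ligand gene Cd40lg at 250 and 177 CPM (-0.50). Ly6a, which encodes Sca-1, was at 1049 and 828 CPM (-0.34), and its median single-cell value was 7.61 per 10000 in WT, 3.66 in Jα18-deficient and 0.217 in CD1d-deficient cells. Cd6 lay on the other side of 0, at 0.64. On cells with no UMI of the rule genes Zbtb16 was at -1.24 and Ly6a at -1.09, and Serpina3g at -0.74. Of 10 such genes (Icos, Cd28, Cd40lg, Il4, Maf, Zbtb16, Rora, Cd5, Cd6 and Ly6a), the median thinned cell held a UMI of 4 in WT and of 4 in Jα18-deficient mice, and of 2 in CD1d-deficient mice. A cell held at least 3 of the 10 in 89.2% of cases in WT, 76.5% in the Jα18-deficient compartment and 39.5% where CD1d was deleted.

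Some cells with UMIs of both NK adaptors also held these NKT genes, but less often than the other cells of their pool. Among Jα18-deficient cells with UMIs of both Tyrobp and Fcer1g after thinning, 66.0% (62 of 94, 55.5% to 75.4%) held at least 3 of the 10 genes, against 84.9% (101 of 119, 77.2% to 90.8%) of the others. In WT the shares were 82.8% (48 of 58, 70.6% to 91.4%) and 90.3% (317 of 351, 86.7% to 93.2%). In the CD1d-deficient compartment they were 29.6% (8 of 27) and 63.6% (7 of 11).

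**Figure D3:**
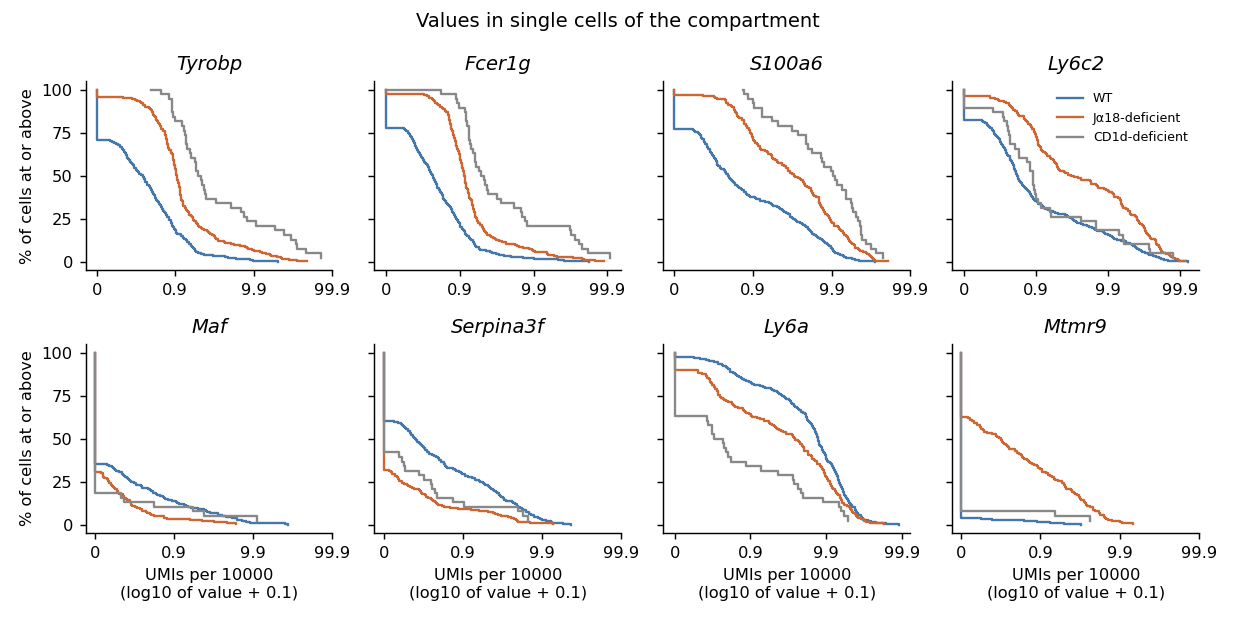
Share of compartment cells (in %) whose value reached a given number of UMIs per 10000 (log10 axis of the value + 0.1), for 8 genes in 409 WT, 213 Jα18-deficient and 38 CD1d-deficient cells. The median value of Tyrobp was 0.290, 0.945 and 1.82 in the 3 pools in this order, that of S100a6 0.389, 3.23 and 10, and that of Ly6a 7.61, 3.66 and 0.217.

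Most transcription factors differed by less than 2-fold. Of 21 transcription factor genes that passed, 1 was higher (Klf2) and 1 lower (Maf), beside 6.86% and 2.58% of all genes. Their median was -0.03 beside 0.09. Tbx21, which encodes T-bet, was at 183 and 248 CPM (0.44), Gata3 at 213 and 189 CPM (-0.17) and Id2 at 5410 and 4266 CPM (-0.34). Runx1 lay at -0.99, and Tox at 0.81 over all cells, with -1.30 in Cd4-positive and 1.38 in Cd4-negative cells. Eomes, which marks NK and CD8 T cells, was near 0 in both pools, at 0.214 and 0.174 CPM.

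Cytokine receptor genes were higher in 3 and lower in 1 of 17 members, beside 6.86% and 2.58% of all genes, with a median of 0.28 beside 0.09. Il10ra, the ligand-binding chain of the interleukin-10 receptor, was at 4.39 and 36.2 CPM, a log2 ratio of 3.04 (2.77 to 3.33), with 0.42 outside the compartment and 2.35 to 3.47 over the other settings, and 1 Jα18-deficient cell gave 35.9% of its UMIs. Its thinned share of cells was 3.18% and 11.3%. The interferon-gamma receptor gene Ifngr1 was at 482 and 985 CPM (1.03), past 2-fold in 8 of 14 other settings, and Il17ra at 51.1 and 105 CPM (1.03), which within Cd4-positive cells was -0.76. Il2rb, the interleukin-2 and interleukin-15 receptor beta chain, was at 754 and 1237 CPM (0.71).

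Effector genes mostly stayed below 2-fold. Of 14 cytokine and chemokine genes 0 were higher and 1 lower, beside 6.86% and 2.58% of all genes. The lower one was Tnf, at 32.2 and 13.7 CPM (-1.23), which on cells with no UMI of the rule genes was at 1.20. Ccl5 stood at 2950 and 4963 CPM (0.75) and at 11038 CPM in the CD1d-deficient compartment, Ccl4 at 8.82 and 16.6 CPM (0.91), and Ifng, the signature cytokine of these cells, at 112 and 118 CPM (0.08), with 1.43 in Cd4-positive and -0.47 in Cd4-negative cells. Of 14 cytotoxic granule genes 0 were past 2-fold in either direction, with a median of 0.07. Gzma was at 80.1 and 136 CPM (0.76), but 56.4% of the WT UMIs came from 1 cell, and with each cell given equal weight the ratio was 1.39. Gzmb was at 333 and 437 CPM (0.39), Prf1 (perforin) at 35.2 and 18.7 CPM (-0.91) and Srgn, the granule proteoglycan serglycin, at 1654 and 944 CPM (-0.81). In Cd4-positive cells, where 15.8% of all genes were higher and 17.9% lower, Gzmb was at 1.26 and Prf1 at -3.70.

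Receptor signalling, interferon-stimulated and metabolic genes had few members past 2-fold. Of 24 T cell receptor signalling genes 1 was higher, Nfatc2 at 1, beside 6.86% of all genes. In that gene 1 Jα18-deficient cell gave 47.7% of the UMIs. Its ratio was -0.35 without cells above 200000 UMIs, -1.15 on cells with no UMI of the rule genes and -0.02 in Cd4-negative cells. Of 16 costimulatory and inhibitory receptor genes, 17 immediate early genes and 13 glycolysis genes, 0 in each list were past 2-fold. Of 21 interferon-stimulated genes 0 were higher and 3 lower, beside 6.86% and 2.58% of all genes, with a median of -0.35 inside and -0.47 outside the compartment. They included Bst2, which encodes tetherin (-1.16), and Trim30a (-1.13), which were past 2-fold in 9 and 10 of 14 other settings. Of 8 MHC genes 0 were past 2-fold, and B2m, the light chain of class I molecules, was at 18263 and 12085 CPM (-0.60).

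Survival and proliferation genes included a few lower members, beside 2.58% of all genes lower and 6.86% higher. Of 9 Bcl2 family genes 2 were lower, namely the pro-apoptotic Bcl2l11 (Bim) at 66.7 and 18.9 CPM (-1.82) and the anti-apoptotic Bcl2a1b at 337 and 138 CPM (-1.29), which has close paralogs, while Bcl2 itself lay at 0.32. Of 13 cell cycle genes 2 were lower, Tyms at -2.96 and Stmn1 at -1.42, but 1 WT cell gave 57.7% of the Tyms UMIs and 80.3% of the Stmn1 UMIs. Without the cell with the most UMIs in each pool, Stmn1 was at 0.53 and Tyms at -2.15, and on cells with no UMI of the rule genes Tyms was at -0.62. Of 11 heat shock genes 2 were higher and 1 lower. The higher ones were the paralogs Hspa1a (1.44) and Hspa1b (1.46), between which reads can be divided, and Hspa1a was at -1.04 without cells above 200000 UMIs, at -0.02 on cells with no UMI of the rule genes and at -5.26 in Cd4-positive cells. The lower one was Hsph1, a chaperone cofactor, at 51.4 and 22.5 CPM (-1.19).

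The 12 highest ratios were led by genes that were also higher outside the compartment. Mtmr9, a myotubularin-related protein, stood at 2.78 CPM in WT and 141 CPM in Jα18-deficient cells, a log2 ratio of 5.67 (5.34 to 6.01), and at 4.23 CPM in the CD1d-deficient compartment. Outside the compartment it stood at 2.49 and 119 CPM (5.58). Its thinned share of cells was 2.69% and 41.8%. Xkrx was at 0.321 and 10.8 CPM (5.07), with 3.74 outside, Plppr4 at 1.86 and 24 CPM (3.69), with 3.51 outside, and Metrnl at 1.36 and 34.9 CPM (4.69), of which 1 Jα18-deficient cell gave 58.7% of the UMIs in that pool. The others were Ccdc136 (3.41), Il10ra (3.04), Vaultrc5 (2.88), Omd (2.84), Slain2 (2.71), Dennd5b (2.67, with 56.8% of its Jα18-deficient UMIs in 1 cell), Otulin (2.64) and Cxcr2 (2.56). Ccdc136 was at 0.96 on cells with no UMI of the rule genes and Dennd5b at 0.49 in Cd4-positive cells. Of the 8 genes earlier seen to be higher over the whole Jα18-deficient pool, all passed the filter and 6 were past 2-fold higher here, beside 6.86% of all genes. These 8 were chosen from the pool that holds these cells, so this count is not independent evidence. Among the 6 were Rcbtb2 at 303 and 682 CPM (1.17) and Tmem176b at 227 and 530 CPM (1.22), and Ckb was not past 2-fold (0.07).

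The 12 lowest ratios held myeloid lysozymes beside the genes already named. Lyz2 was at 76.6 CPM in WT, 10.4 CPM in Jα18-deficient and 421 CPM in CD1d-deficient compartment cells, and Lyz1 at 47.4, 8.50 and 230 CPM. Their log2 ratios were -2.88 and -2.48 inside and -2.18 and -1.66 outside the compartment, and as paralogs they can share reads. The 13 myeloid markers summed to 337, 210 and 1006 CPM in the WT, Jα18-deficient and CD1d-deficient compartment cells, and 5 passed the filter, of which Cst3 lay at -0.08. Below the filter, Cd68 stood at 5.92, 0.872 and 10.1 CPM, Csf1r at 3.28, 1.26 and 8.14 CPM and Itgam at 0.892, 0.0872 and 6.19 CPM, each lowest in Jα18-deficient and highest in CD1d-deficient cells, like Lyz2. The macrophage genes Adgre1 and C1qa were at most 0.785 CPM in every pool. C1qb went the other way on low levels. It was at 0 CPM in WT and 0.404 CPM in Jα18-deficient Cd4-positive cells, and at 0.163 and 2.17 CPM in Cd4-negative cells. The 13 hepatocyte markers summed to 43.3, 13.1 and 13.4 CPM, with albumin at 7.53 CPM in WT and 0 in Jα18-deficient cells, the B cell markers to 3.32, 1.96 and 0.651 CPM, and the erythroid and endothelial markers to 7.57, 17.4 and 6.84 CPM. The part of other cells' RNA in the results was not tested. The remaining lowest genes were Slf2 (-1.93), Ms4a6c (-1.90), Erlec1 (-1.86), Ccnh (-1.79), Ccl6 (-1.78) and Klhl9 (-1.76). On cells with no UMI of the rule genes Ccnh was at -0.07 and Slf2 at -0.75, and Erlec1 was at -0.77 with each cell given equal weight and at -0.75 after thinning.

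Part of the difference was also present in the other cells of the pools. Of the 332 higher genes 298 also passed the filter outside, and 98 of these (32.9%) were at least 2-fold higher there too, which are 18.2% of the 538 genes higher outside. Over the 4620 genes measured in both places, 2.12% were higher in both and 0.411% lower in both (19 genes), beside 11% higher and 3.01% lower over all 4877 genes tested outside. The higher genes had a median log2 ratio of 1.27 inside and 0.62 outside, and the 107 lower genes measured in both had -1.24 and -0.25. The largest positive differences between inside and outside were those of Ccdc136 (3.41 and -0.96), Tmed7 (1.95 and -1.55), Zbtb44 (1.53 and -1.68), Glg1 (2.01 and -1.07), Ipo8 (0.59 and -2.31) and Nup62 (1.51 and -1.38). The largest negative ones among genes that passed the filter in both places were those of Gm15417 (0.24 and 4.59), Xpo6 (-0.31 and 3.45), Hspa1b (1.46 and 5.16), Stmn1 (-1.42 and 2.19), Bap1 (-0.22 and 3.29) and Dennd4c (-1.58 and 1.79). In Ipo8, 1 cell gave 53.2% of the Jα18-deficient UMIs inside. Ccr9, which did not pass the filter outside and stood at 3.02 CPM in WT cells there, differed more, with ratios of -1.18 and 3.59. On cells with no UMI of the rule genes the inside ratio was 0.96 for Ccdc136 and 0.12 for Glg1, and at up to 200000 UMIs 0.28 for Zbtb44 and 0.74 for Tmed7. The inside ratios of Ipo8, Gm15417, Xpo6 and Bap1 were below 2-fold, and those of Ipo8, Gm15417 and Bap1 changed sign between settings. These differences between inside and outside were not tested.

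**Figure D4:**
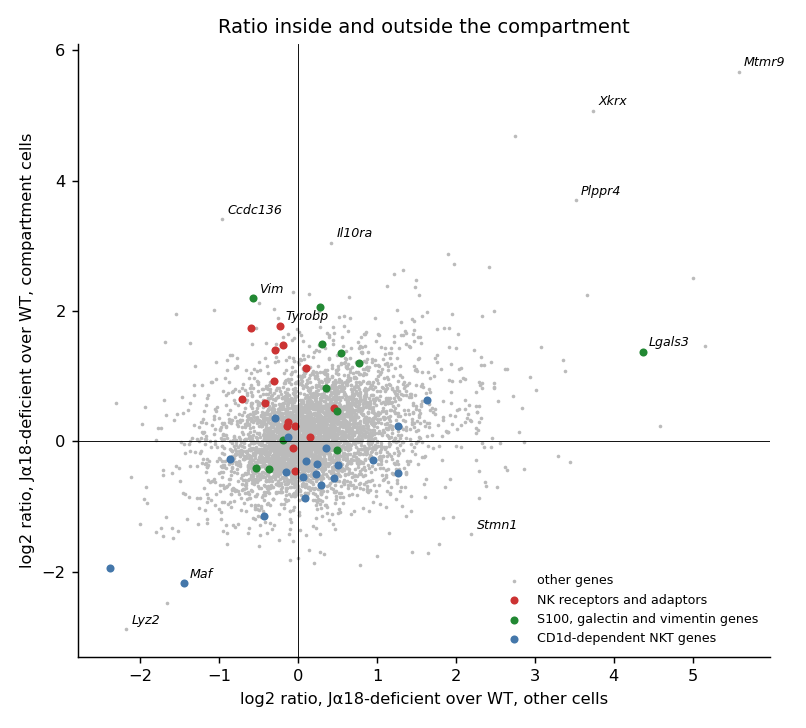
Log2 ratio, Jα18-deficient over WT, in the other cells (x axis) and in compartment cells (y axis) for the 4620 genes measured in both, with 3 gene lists in colour. Mtmr9, Xkrx and Plppr4 are high on both axes, whereas Tyrobp, Vim and Ccdc136 are above 1 inside and below 0 outside.

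The deleted segment lies in the T cell receptor alpha locus, whose annotated segments span chr14:53047603-54842772 in mm9. On chromosome 14, 12 of 173 tested genes were higher (6.94%) and 6 lower (3.47%), beside 6.75% and 2.60% of the 4801 genes with a position. Of the 164 genes measured in both places 7 (4.27%) were higher both inside and outside, beside 2.05% over all positions, and 1 was lower in both. Within 20 Mb on either side of the locus 6 of 92 genes (6.52%) were higher in both. These 6 were Styx, Lgals3, Rab2b, Psmb11, Mtmr9 and Rcbtb2, and the seventh, Ggact, lay 68.4 Mb away. Rab2b, a small GTPase, at chr14:52881434-52899220, lay 0.148 Mb from the locus and stood at 12.1 and 34.5 CPM inside (1.51) and 16.2 and 47.6 CPM outside (1.56). Psmb11, the thymus proteasome subunit beta 5t, lay 0.401 Mb from it and stood at 1.78 and 5.45 CPM (1.61). Mtmr9, at chr14:64142453-64162790, lay 9.30 Mb from it. The gene lower in both was Atp8a2, 5.42 Mb away, at 36.5 and 14.1 CPM (-1.37).

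**Figure D5:**
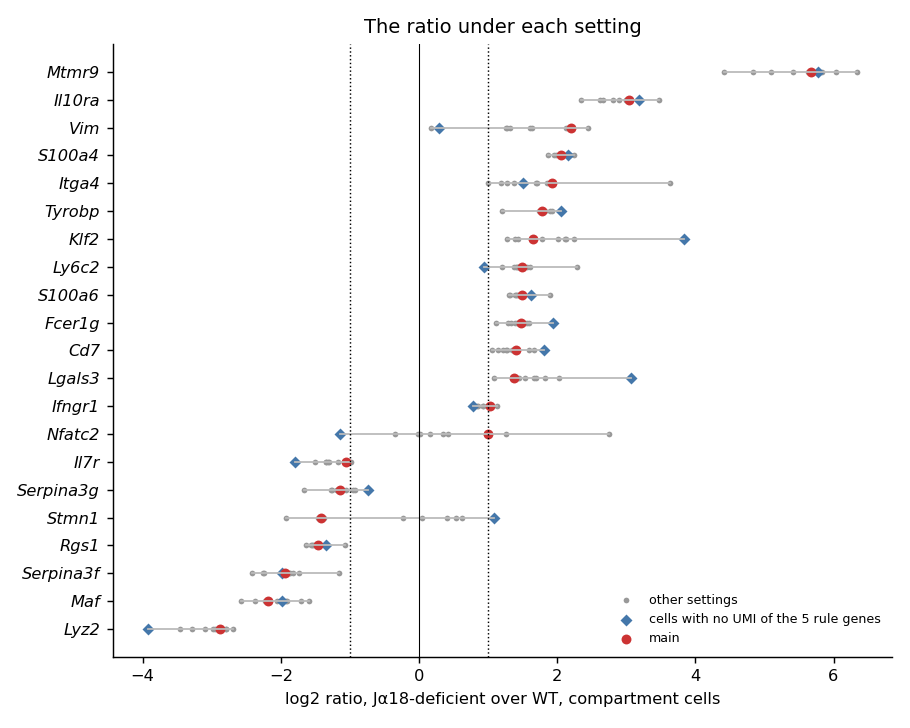
Log2 ratio, Jα18-deficient over WT, in compartment cells for 21 genes as reported (red), on cells without any UMI of the 5 rule genes (blue diamonds) and under the 13 other settings (grey). Mtmr9, Il10ra, S100a4, Tyrobp, Fcer1g, Cd7, Rgs1, Serpina3f, Maf and Lyz2 stay past 2-fold in every setting, whereas Nfatc2 and Stmn1 cross 0.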

How the data were processed

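Single cells came from 24 libraries in the labels, 8 a genotype, which the cell names do not carry. Per the labels and methods, the authors trimmed reads with Cutadapt 1.15, aligned them to mm9 with TopHat2 2.0.12, removed duplicates by UMI and counted with HTSeq 0.10.0; the deposited values are whole UMI counts, not normalized. Cells under 10000 UMIs (100 WT, 93 Jα18-deficient and 160 CD1d-deficient) are in the matrix and were left out. Cells were picked by hand and no doublet caller was run.

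The members, the 25 gene lists and the rules were chosen with earlier results of these data known. UMIs were summed per pool over compartment cells and scaled to 1000000. Levels have exact Poisson and ratios exact conditional binomial 95% intervals, which cover counting error only. A sum of 0 was put at a floor of 3 UMIs over the pool. Shares of cells were taken after seeded thinning to 10000 UMIs. The 12 highest and 12 lowest genes, up to 4 members a list with the largest ratio, members a list is known for, and the 6 largest differences inside against outside in each direction were named. Positions came from the NCBIM37 (mm9) annotation, in which 4801 of 4841 tested genes matched, 4435 by name and the others by synonym, and promoters from its genome. Functions were tested on simulated data. Python 3.11.15, scipy 1.17.1, matplotlib 3.10.9, and edgeR 4.0.16 in R 4.3.3 for TMM factors only, were used. The alternatives changed depth limits, the rule, weighting, thinning, scaling, filters and the Cd4 subset, and leaving out the cell with the most UMIs of a gene was added after seeing the data. Some items that the rule for named genes covers are not reported here.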

Additional observations from a re-analysis of the deposited data

Results flagged for a closer look

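In 6 of the named genes that passed the filter in both places the Jα18-deficient over WT ratio was past 2-fold in one direction in compartment cells and past 2-fold in the other direction in the other cells. These 6 were named for having the largest differences between inside and outside, so their count follows from the naming rule. The differences, inside minus outside on the log2 scale, were not tested, because each genotype was 1 pool. Over all 4620 genes measured in both places, 6 genes higher and 10 genes lower inside were past 2-fold the other way outside. Stmn1 differed by -3.61 (-1.42 inside, 2.19 outside), and 1 WT cell gave 80.3% of its WT UMIs inside. Dennd4c differed by -3.37 (-1.58 and 1.79). Tmed7 differed by 3.49 (1.95 and -1.55), Zbtb44 by 3.21 (1.53 and -1.68), Glg1 by 3.08 (2.01 and -1.07) and Nup62 by 2.89 (1.51 and -1.38). The inside ratio was below 2-fold for Glg1 on cells with no UMI of the rule genes (0.12), and for Zbtb44 (0.28) and Tmed7 (0.74) at up to 200000 UMIs.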

How the results depend on the processing

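No paired analysis was possible because the cell names carry no library number and each genotype was 1 pool. The share of cells in the compartment was 82.9% in WT with at least 20000 UMIs, 49.9% in WT and 7.75% in Jα18-deficient mice with no UMI of the rule genes, and 25.2% in Jα18-deficient mice with every Klra gene summed. The higher count of 332 (6.86%) became 818 of 5187 (15.8%) in Cd4-positive cells and 998 of 8599 (11.6%) with a filter of 20 UMIs and 5% of cells. Without a filter it became 2505 of 13277 (18.9%). The lower count of 125 (2.58%) became 456 (11.1%) with no UMI of the rule genes, 929 (17.9%) in Cd4-positive and 192 (3.99%) in Cd4-negative cells. It became 75 (1.55%) with equal weight per cell, 819 (9.52%) with the looser filter and 2978 (22.4%) without a filter. It was 223 (4.61%) without the cell with the most UMIs of each gene, an alternative chosen after seeing the data. On chromosome 14 the higher count of 12 became 7 at up to 200000 UMIs, 31 in Cd4-positive cells, 37 with the looser filter and 81 without one. Higher NK receptor members became 9 without a filter and higher S100 group members 3 in Cd4-positive cells. Higher circulation members became 2 at up to 200000 UMIs and 8 with either weaker filter. They became 1 with no UMI of the rule genes, where the filter was applied again. Over all genes the higher share was 5.56% at up to 200000 UMIs, 9.84% with no UMI of the rule genes and 15.8% in Cd4-positive cells. It was 11.6% with the looser filter and 18.9% without one. With no UMI of the rule genes the sign turned for Tnf (1.20), Nfatc2 (-1.15), Hspa1a (-0.02) and Stmn1 (1.08). At up to 200000 UMIs it turned for Nfatc2 (-0.35), Hspa1a (-1.04) and Stmn1 (0.62). In Cd4-positive cells it turned for Il17ra (-0.76), Hspa1a (-5.26), Stmn1 (0.41) and Zbtb44 (-0.07), and in Cd4-negative cells for Nfatc2 (-0.02). Stmn1 was at 0.05 with equal weight and at 0.53 without its top cell. The cause was not tested. Of the 57 named genes past 2-fold, 53 kept their sign and 38 stayed past 2-fold with no UMI of the rule genes. Of all 457 genes past 2-fold, 363 kept their sign and 215 stayed past 2-fold there, and 222 stayed with equal weight, 229 after thinning and 241 at up to 200000 UMIs. The animals' spread could not be measured.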
